A study of Rattus norvegicus with 20 samples.

Results

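Organic ion and drug transporters were followed as the protein-coding genes named Slc22a, Slco, Slc47a or Abcc with a number. The choice was by name and used no measured value, but it was made with earlier results of these data known. The names gave 46 genes of 23096 protein-coding genes and 30560 genes in all: 19 of the SLC22 family, 15 of the SLCO family, 2 of the SLC47 family and 10 of the ABCC family. Some loci that carry a related gene under another name, such as Ust4r and Ust5r, fall outside that choice. RNA was sequenced from kidney cortex and left ventricle of 10 male rats, 1 library from each organ of each rat, with 5 rats given Maresin 1 (MaR1) and 5 given its vehicle. MaR1, a lipid mediator made from docosahexaenoic acid, was delivered under the skin from an osmotic minipump at up to 1.3 µg/kg/day. All rats, vehicle rats included, carried a blood pressure telemeter implanted at 8 weeks of age and ate a diet with 4% NaCl for the 3 weeks of treatment. The labels give the genotype as WT and name no strain. Levels without high salt were not analysed here. Values are listed for rats RB035 to RB039 (MaR1) and RB030 to RB034 (vehicle), in that order, as FPKM, the number of fragments per kilobase of gene length, scaled for library size by the authors.

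Transporters of these families move organic ions, drugs, hormones and metabolites across cell membranes. In the proximal tubule of the kidney, basolateral carriers of the SLC22 family take organic anions and cations up from the blood, and apical exporters such as MATE1 and the MRP proteins pass them on into the urine. The SLCO family encodes the organic anion transporting polypeptides (OATPs), which take up bile acids, steroid conjugates, prostaglandins and thyroid hormones. The ABCC family holds the MRP export pumps, and also Abcc8 and Abcc9, the sulfonylurea receptor subunits of ATP-sensitive potassium channels. The proximal tubule begins as a convoluted part and ends as a straight part, which in the medullary rays of the cortex runs beside the thick ascending limb.

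Many of the members lie near one another along the genome. Of the 46 genes, 27 stand in 18 pairs of members less than 500 kb apart, by the coordinates of the deposited table. The share over all genes was not computed, and the sources used here do not name their build. Some pairs join different families: Slco1a6 and Abcc9 are 415 kb apart, and Slc22a7 and Abcc10 are 103 kb apart. Slc22a2 and Slc22a3, the organic cation transporters OCT2 and OCT3, lie 72.2 kb apart on chromosome 1. Slc22a8 and Slc22a6, which encode the organic anion transporters OAT3 and OAT1, lie 5.28 kb apart in another cluster on chromosome 1, with Slc22a25 on their near side. Slco1a1, Slco1a3 and Slco1a6 lie side by side on chromosome 4, inside the span annotated for Slco1a4 on the same strand. Genes of such a cluster resemble one another in sequence, so fragments may have been divided among them, and values of near-identical copies are uncertain to that extent. Neighbours nevertheless had very different levels: Slc47a1 averaged 77.3 FPKM in kidney, and Slc47a2, 0.217 kb away, averaged 0.15 FPKM.

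A promoter, here the 250 bases before and the 50 bases after the annotated start, was on hand for 37 of the 46 genes (RefSeq, build GRCr8; none for Slc22a6 or Slc47a1). The letters GTTAAT, the core of the site of hepatocyte nuclear factor 1, a factor that drives many proximal tubule genes, were looked for on both strands. They stood in 4 of the 37 promoters (10.8%), those of Slc22a25, Slc22a8, Abcc2 and Slco1b2, against 7.37% of all 27457 promoters of the same length. The letters CAAAGTCCA, a site of hepatocyte nuclear factor 4, stood in 0 of the 37, against 0.375% of all promoters. The antioxidant response letters TGACNNNGC stood in 6 of the 37 (16.2%), against 12.2% of all promoters. These motifs do not overlap in the promoters printed here. Slc22a8 and Slc22a25 are shown because they are neighbours that hold the GTTAAT letters, and Slc22a2 and Slco1a1 as abundant kidney members without them; capitals mark GTTAAT, or ATTAAC where it lies on the other strand.
Slc22a8 promoter, chr1:214927034-214927333, plus strand: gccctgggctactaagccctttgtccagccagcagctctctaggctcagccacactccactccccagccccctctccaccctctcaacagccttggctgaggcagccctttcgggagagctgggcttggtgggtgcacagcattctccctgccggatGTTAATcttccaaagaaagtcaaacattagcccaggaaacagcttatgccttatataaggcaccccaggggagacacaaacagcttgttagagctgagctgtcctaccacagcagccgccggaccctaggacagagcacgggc
Slc22a25 promoter, chr1:214862291-214862590, minus strand: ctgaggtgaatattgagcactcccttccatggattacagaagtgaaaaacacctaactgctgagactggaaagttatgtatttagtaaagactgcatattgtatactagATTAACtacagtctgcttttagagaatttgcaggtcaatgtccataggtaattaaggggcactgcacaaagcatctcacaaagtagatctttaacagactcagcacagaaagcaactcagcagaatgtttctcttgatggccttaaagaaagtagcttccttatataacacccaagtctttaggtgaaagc
Slc22a2 promoter, chr1:50710970-50711269, minus strand: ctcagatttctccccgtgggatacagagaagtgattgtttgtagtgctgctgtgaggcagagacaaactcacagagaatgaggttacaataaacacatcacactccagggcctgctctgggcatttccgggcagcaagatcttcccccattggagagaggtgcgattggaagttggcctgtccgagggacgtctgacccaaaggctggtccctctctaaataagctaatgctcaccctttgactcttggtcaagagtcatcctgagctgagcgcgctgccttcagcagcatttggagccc
Slco1a1 promoter, chr4:176681943-176682242, minus strand: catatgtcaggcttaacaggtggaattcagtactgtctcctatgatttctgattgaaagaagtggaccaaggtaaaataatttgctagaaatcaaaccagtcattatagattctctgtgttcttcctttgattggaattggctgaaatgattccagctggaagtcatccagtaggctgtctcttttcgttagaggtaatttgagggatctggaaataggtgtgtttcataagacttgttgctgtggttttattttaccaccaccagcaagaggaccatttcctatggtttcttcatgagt
In the Slc22a8 promoter the match begins 93 bases before the start, and in the Slc22a25 promoter 141 bases before it. A match is a run of letters and was not tested as a binding site. The letters do not follow the sets of kidney genes described below, since Slc22a5, Slc22a18 and Slc22a23, which belong to the same set as Slc22a8, hold none in these windows.

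The libraries held 19383232 to 30342034 assigned fragments, and organ markers fitted the labels, with summed proximal tubule markers at 4027 to 7038 FPKM in kidneys and summed cardiomyocyte markers at 11254 to 19574 FPKM in hearts. Some libraries also carried transcripts of neighbouring tissue. In the kidney of MaR1 rat RB039, the 7 urothelium markers summed to 87.7 FPKM and the 6 adipocyte markers to 494 FPKM. The next highest kidneys were those of MaR1 rats RB038, with 32.1 FPKM of urothelium markers, and RB036, with 67.6 FPKM of adipocyte markers. Atrial markers summed to 616 to 3384 FPKM in the ventricles of MaR1 rats RB035 and RB038 and vehicle rats RB031, RB033 and RB034, against 13.7 to 64.6 FPKM in the other 5 ventricles.

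Organic anion transporters of the SLC22 family were the most abundant members in kidney cortex, and 31 of the 46 members averaged at least 1 FPKM there. Of those, 15 averaged at least 10 FPKM and 5 at least 100 FPKM. Slc22a6 (OAT1), which exchanges p-aminohippurate and many drugs against dicarboxylates, had 309, 376, 222, 219.8 and 501 FPKM in MaR1 kidneys and 312, 437, 397, 361 and 424 FPKM in vehicle kidneys. The MaR1 kidneys held both the lowest values (RB037 and RB038) and the highest (RB039), and the groups overlapped. Slc22a8 (OAT3), its basolateral partner, had 125, 164, 85.7, 78.5 and 253 FPKM in MaR1 kidneys and 149, 207, 184, 180.0 and 201 FPKM in vehicle kidneys. The same MaR1 rats stood at the ends. Its ratio to Slc22a6 stayed within 0.357 to 0.505 in MaR1 kidneys and 0.463 to 0.499 in vehicle kidneys.

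Slc22a12 (URAT1), the apical urate exchanger, had 144, 168, 154, 182 and 115 FPKM in MaR1 kidneys and 80.6, 203, 149, 119.8 and 207 FPKM in vehicle kidneys. Vehicle rat RB030 was the lowest and vehicle rat RB034 the highest, with the MaR1 rats between them. Slc22a22, which carries prostaglandins in mice, had 79.9, 89.6, 70.3, 87.8 and 42.1 FPKM in MaR1 kidneys and 24.99, 80.3, 52.1, 48.7 and 74.7 FPKM in vehicle kidneys. Low values fell in RB039 among MaR1 rats and RB030 among vehicle rats, and the groups overlapped. Slc22a25, whose substrates are little known, had 46.6, 48.3, 37.3, 48.5 and 48.1 FPKM in MaR1 kidneys and 29.3, 47.4, 43.6, 44.2 and 52.3 FPKM in vehicle kidneys, a narrow span apart from RB037 and RB030. Slc22a7 (OAT2) was lower but ranged widest of the members tested in kidney, with 10.5, 10.7, 9.77, 16.9 and 1.41 FPKM in MaR1 kidneys and 0.659, 8.23, 4.02, 4.30 and 12.8 FPKM in vehicle kidneys. Its highest value was 25.6 times its lowest, with RB030 and RB039 at the bottom and RB038 at the top. Slc22a13 averaged 0.891 FPKM, and Slc22a20 0.0257 FPKM.

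Among the cation transporters, Slc22a2 (OCT2), which takes creatinine and metformin up from the blood, had 240.0, 222, 242, 319 and 107 FPKM in MaR1 kidneys and 67.6, 249, 154, 134 and 226 FPKM in vehicle kidneys. RB038, the lowest kidney for Slc22a6, was the highest here, and RB039, the highest for Slc22a6, was among the lowest together with RB030. The ratio of Slc22a2 to Slc22a6 spanned 0.213 in RB039 to 1.45 in RB038 among MaR1 kidneys, against 0.216 in RB030 to 0.569 in RB031 among vehicle kidneys. Slc47a1 (MATE1), the apical proton antiporter that exports cations into the urine, had 79.03, 86.5, 63.4, 78.99 and 81 FPKM in MaR1 kidneys and 53.5, 91.9, 74.8, 70.2 and 94.1 FPKM in vehicle kidneys, with RB030 lowest and the groups overlapping. Slc22a3 (OCT3) was near 0 in 9 kidneys, at no more than 0.250 FPKM, but reached 1.91 FPKM in the kidney of MaR1 rat RB039. That kidney library held the most adipocyte and urothelium transcripts, and their part in this value was not tested.

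Of the carnitine branch, Slc22a5 (OCTN2), the sodium-driven carnitine carrier, had 86.9, 108, 56.4, 55.4 and 129 FPKM in MaR1 kidneys and 78.4, 116, 110.0, 103 and 120.4 FPKM in vehicle kidneys. RB037 and RB038 were the lowest, RB039 the highest, and the groups overlapped. Slc22a21, known in mice as the carnitine carrier Octn3, averaged 2.44 FPKM. The imprinted gene Slc22a18 had 68.7, 77.2, 59.8, 63.2 and 99.3 FPKM in MaR1 kidneys and 70.1, 91.3, 92.6, 87.4 and 91.4 FPKM in vehicle kidneys. All vehicle kidneys except RB030 lay above all MaR1 kidneys except RB039. Slc22a23, an orphan member, had 23.9, 33.5, 16.5, 15.7 and 49.2 FPKM in MaR1 kidneys and 27, 34.97, 30.1, 33.1 and 38.01 FPKM in vehicle kidneys, again with RB037 and RB038 low and RB039 high. Slc22a17, a receptor for lipocalin-2, kept within 9.28 to 10.4 FPKM in MaR1 kidneys and 8.90 to 12.2 FPKM in vehicle kidneys, and Slc22a15 within 5.42 to 9.80 FPKM in MaR1 kidneys and 5.41 to 8.20 FPKM in vehicle kidneys.

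The renal OATPs varied more. Slco1a6 (Oatp1a6) had 223, 217, 219, 306 and 43.5 FPKM in MaR1 kidneys and 23.6, 184, 85.9, 84.9 and 195 FPKM in vehicle kidneys. The spread was wide: RB030 and RB039 were far below the rest, and 4 MaR1 kidneys were above every vehicle kidney. Slco1a3, which encodes the rat kidney carriers OAT-K1 and OAT-K2, had 100, 105, 93.9, 129 and 26.4 FPKM in MaR1 kidneys and 20.96, 77.3, 54.9, 47.6 and 86.7 FPKM in vehicle kidneys. Slco1a1 (Oatp1a1), which carries steroid sulfates and bile acids, had 98.1, 102, 91.5, 122 and 24.02 FPKM in MaR1 kidneys and 14.3, 68.6, 47.9, 39.3 and 85.4 FPKM in vehicle kidneys. For both genes, too, 4 MaR1 kidneys lay above all vehicle kidneys and RB039 lay below all of them except RB030. The ratio of Slco1a1 to Slco1a3 was 0.911 to 0.981 in MaR1 kidneys and 0.683 to 0.986 in vehicle kidneys, lowest in RB030. Slco4c1, a basolateral carrier of digoxin and thyroid hormone, had 10.9, 9.88, 9.44, 15.7 and 2.31 FPKM in MaR1 kidneys and 2.11, 8.80, 5.17, 5.92 and 11.1 FPKM in vehicle kidneys, again with RB039 and RB030 at the bottom. Slco2a1, the prostaglandin transporter, was steadier, at 7.34 to 9.30 FPKM in MaR1 kidneys and 7.31 to 9.85 FPKM in vehicle kidneys. The brain and liver OATPs were almost silent: Slco1c1 averaged 0.00130 FPKM, Slco1b2 0.0751 FPKM and Slco1a4 0.133 FPKM.

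In the ABCC family, Abcc4 (MRP4), an apical pump for cyclic nucleotides and prostaglandins, led in kidney with 14.5, 18.1, 11.5, 10.8 and 24.3 FPKM in MaR1 kidneys and 19.04, 18.9, 13.7, 17.8 and 15.5 FPKM in vehicle kidneys. RB037 and RB038 were the lowest and RB039 the highest, and the groups overlapped. Abcc2 (MRP2), the apical pump for glutathione and glucuronide conjugates, averaged 6.63 ± 2.01 FPKM in MaR1 kidneys and 7.27 ± 1.11 FPKM in vehicle kidneys (SD, n = 5 each). Abcc1, Abcc3, Abcc5, Abcc6, Abcc9 and Abcc10 averaged 2.28 to 5.35 FPKM over the 10 kidneys. Across families, SLCO members summed to 410 ± 177 FPKM in MaR1 kidneys and 249 ± 128 FPKM in vehicle kidneys, organic anion members of SLC22 to 750 ± 157 FPKM in MaR1 kidneys and 829 ± 161 FPKM in vehicle kidneys, and all members to 1805 ± 157 FPKM in MaR1 kidneys and 1718 ± 417 FPKM in vehicle kidneys (SD, n = 5 each).

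**Figure D1:**
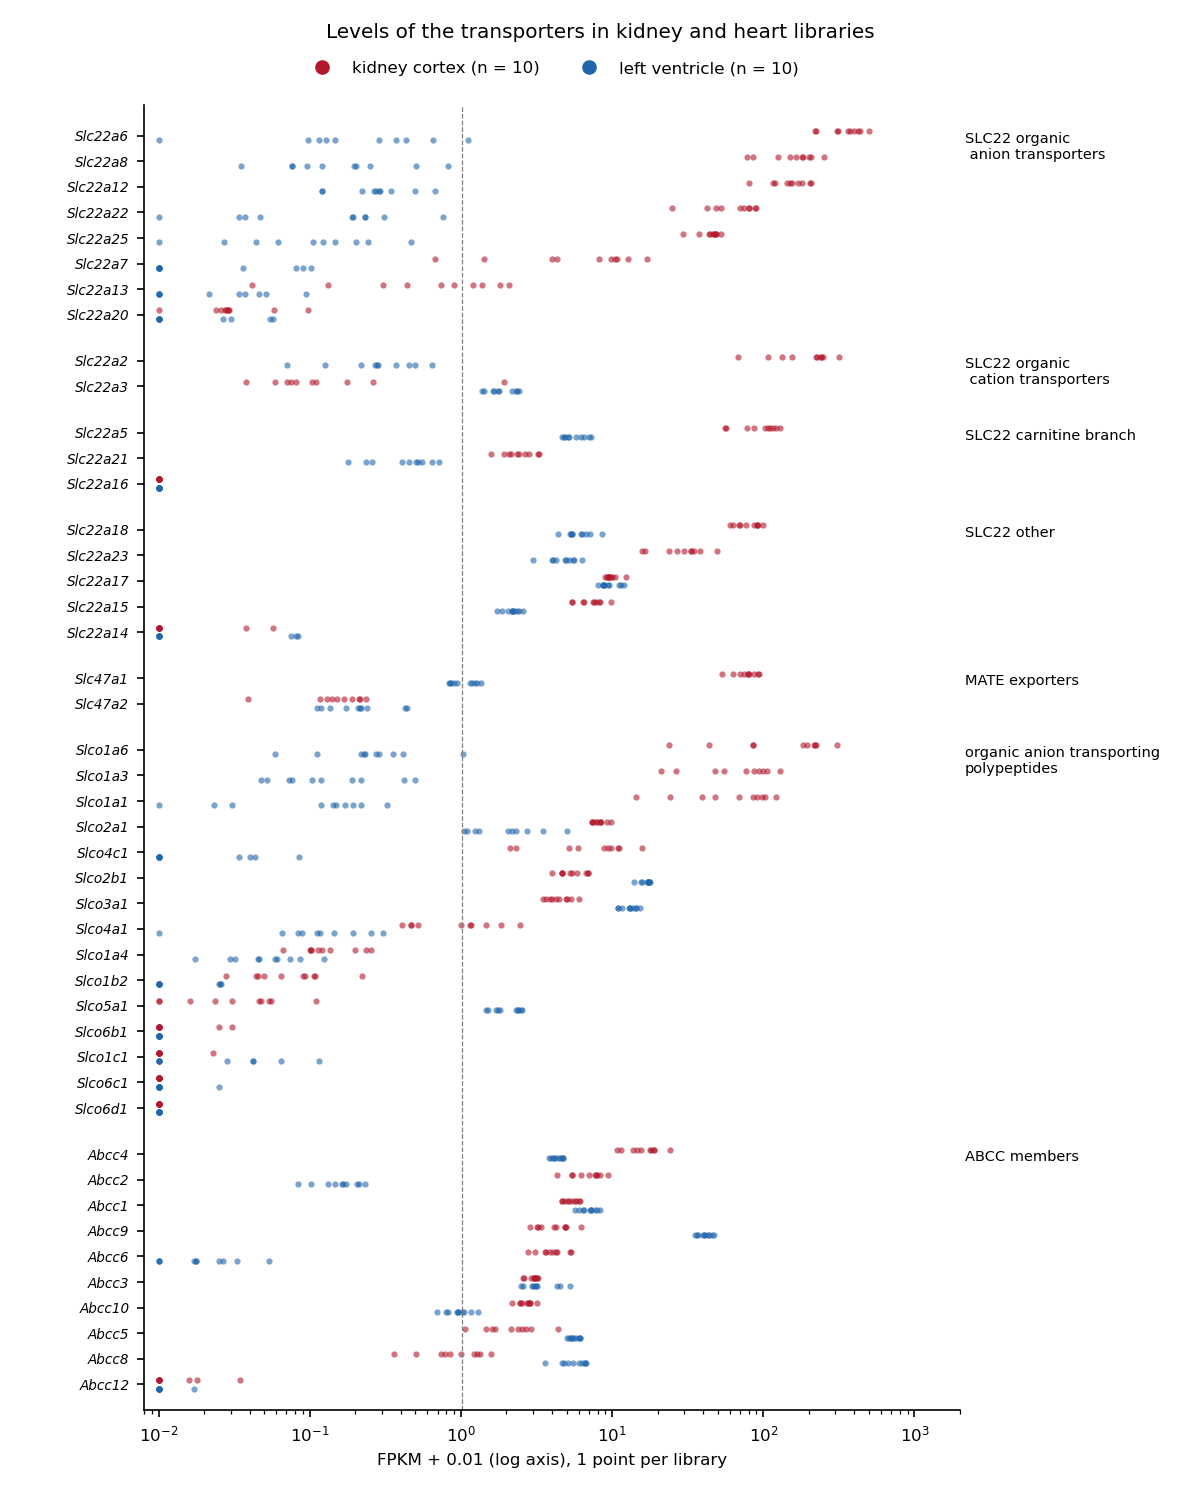
Level of the transporters in 10 kidney cortex libraries (red) and 10 left ventricle libraries (blue), 1 point per library, as FPKM + 0.01 on a log axis, grouped by family; the dashed line marks 1 FPKM. The SLC22 anion and cation transporters, Slc47a1 and Slco1a1, Slco1a3 and Slco1a6 lie far to the right in kidney, while Abcc9, Slco2b1 and Slco3a1 lie to the right in heart.

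The heart expressed a smaller set with other leading members, with 17 at a mean of at least 1 FPKM and 3 at 10 FPKM or more. Abcc9 (SUR2), the channel subunit that couples potassium conductance to ATP in heart and vascular muscle, led with 36.3, 45.4, 43.7, 36.7 and 40.8 FPKM in MaR1 hearts and 40.2, 43.1, 47.01, 35.4 and 40.98 FPKM in vehicle hearts. The groups overlapped over nearly their whole range. Slco2b1, a broad carrier of steroid sulfates, had 17.5, 17.2, 17.5, 16.9 and 15.4 FPKM in MaR1 hearts and 14.03, 15.8, 17.2, 17.6 and 17.7 FPKM in vehicle hearts, with the lowest value in vehicle rat RB030. Slco3a1, which carries prostaglandins and thyroxine, had 15.2, 13.6, 13.2, 14.3 and 12.9 FPKM in MaR1 hearts and 11.6, 10.96, 10.9, 14.4 and 13.03 FPKM in vehicle hearts. Here 3 vehicle hearts (RB030, RB031 and RB032) lay below all MaR1 hearts, and the other 2 lay among them.

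Slc22a17 followed, with 8.65 to 12.02 FPKM in MaR1 hearts and 8.05 to 11.4 FPKM in vehicle hearts, and then Abcc1 (MRP1), the leukotriene C4 pump, with 5.99 to 8.31 FPKM in MaR1 hearts and 5.66 to 7.96 FPKM in vehicle hearts. Slc22a5, the carnitine carrier, had 4.65 to 7.22 FPKM in MaR1 hearts and 4.84 to 6.52 FPKM in vehicle hearts. The cyclic GMP pump Abcc5 (MRP5) and Abcc8 (SUR1) averaged 5.59 and 5.59 FPKM over the 10 hearts, and the catecholamine carrier Slc22a3 averaged 1.88 FPKM. At the level of 1 FPKM, 14 members were found in both organs, 17 in kidney only, 3 in heart only (Abcc8, Slc22a3 and Slco5a1) and 12 in neither. Slco6d1 and Slc22a16, known from testis, were listed at 0 in all 20 libraries.

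Set against the heart, the kidney held most members at far higher levels. Of the 33 members that passed the filter over all 20 libraries, 31 were called (limma, adjusted p under 0.05), against 84.6% of all genes tested, so the number of calls as such does not set them apart. The direction was uneven: 23 were higher in kidney, against 43.6% of all genes, and 8 were lower, against 41% of all genes. The median log2 fold change was 3.12 over these members and 0.02 over all 12984 genes. Kidney and heart values did not overlap for 29 of the 33, against 56.9% of all genes. The filter was a mean over both organs, so a gene near 0 in 1 organ passed only through the other. Of the 46 members, 17 reached 1 FPKM in kidney only and 3 in heart only. The direction, median and overlap thus describe genes picked in part by the organ where they are high. They are no test of the families. In bulk tissue, fewer cells of a type and less RNA per cell cannot be told apart.

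The steepest differences were those of the basolateral and apical ion transporters. Slc22a6 averaged 356 ± 91.3 FPKM in kidney and 0.325 ± 0.332 FPKM in heart (SD, n = 10 each), with a log2 fold change of 8.80 ± 0.17 (SE; adjusted p = 3.1e-20). Next came Slc22a2 with a log2 fold change of 7.82 (adjusted p = 7.2e-18), Slc22a8 with 7.78 (adjusted p = 3.6e-19), Slc22a12 with 7.55 (adjusted p = 5.3e-20) and Slco1a6 with 7.32 (adjusted p = 7.9e-14). Lower in kidney were Abcc9, with 4.19 ± 1.06 FPKM in kidney and 40.96 ± 3.94 FPKM in heart (log2 fold change -3.17 ± 0.11, adjusted p = 3.2e-16), and then Slco5a1 (-2.23), Abcc8 (-2.09), Slc22a3 (-1.78) and Slco2b1 (-1.53), each with an adjusted p of 8.2e-08 or less. The carriers that differ in sign thus include members of the same cluster: Slc22a3 was lower in kidney than in heart, while Slc22a2 was higher. Slc22a17 (log2 fold change 0.03, adjusted p = 0.679) and Abcc3 (-0.15, adjusted p = 0.162) did not pass. Where an organ is near 0, the fold change rests on the pseudocount of 0.5: by limma voom on the recovered fragments, the log2 fold change was 10.8 for Slc22a6 and -6.48 for Slco5a1.

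Within the kidneys, the members were set against 2 sets of segment markers from rat to rat. Of the 31 tested, 8 rose with thick ascending limb markers, against 5.09% of all genes, and 0 fell, against 3.0%. With proximal tubule markers 6 rose, against 12.2% of all genes, and 2 fell, against 4.58%. The other 15 members passed with neither, among them Slc22a12, Slc47a1, Slc22a17 and Slco2a1. Vehicle rat RB030 was the lowest of the 10 kidneys for 13 of the 31 members at 1 FPKM or more, MaR1 rat RB038 was lowest for 6 and highest for 8, and MaR1 rat RB039 was highest for 8. To describe the sets, each gene's log2(FPKM + 0.5) was correlated over the 10 kidneys with the log2 sum of 3 thick ascending limb markers (Umod, Slc12a1 and Cldn16) and with the log2 sum of 10 proximal tubule markers, 62 relations over the members, with permutation p-values adjusted over all 12446 genes tested. The thick ascending limb markers summed to 1220, 1243, 1727, 1713 and 641 FPKM in MaR1 kidneys and to 477, 1088, 731, 654 and 1113 FPKM in vehicle kidneys. The proximal tubule markers summed to 5035, 5878, 4027, 4582 and 6871 FPKM in MaR1 kidneys and to 4435, 7038, 6330, 5849 and 6785 FPKM in vehicle kidneys. All of these values come from the same libraries and share their scaling.

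Of the 31 members, 8 rose with the thick ascending limb markers (adjusted p under 0.05), against 5.09% of all genes, and 0 fell, against 3.0%. They were Slco1a6 (r = 0.94), Slc22a2 (0.94), Slco1a1 (0.94), Slco1a3 (0.93), Slc22a7 (0.91), Slco4c1 (0.90), Slc22a22 (0.89) and Slc22a15 (0.85). For Slco1a6, Spearman's rho was 0.94, the permutation p was 3e-05 and the adjusted p was 0.00557. Without the 2 kidneys farthest from the median of the markers, RB030 and RB039, the coefficients stayed at 0.80 or more, and after removing the treatment means they were 0.84 or more. By rank, 3 of the 8 passed the adjustment (Slco1a6, Slco1a1 and Slco1a3), each with an adjusted p of 0.0252 or less. For Slc22a2, rho was 0.82 and its adjusted p 0.0896.

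With the proximal tubule markers 6 of the 31 members rose, against 12.2% of all genes, and 2 fell, against 4.58%. These counts are not far above the shares of all genes, so they do not set the members apart. Among the 6 were Slc22a18 (r = 0.95), Slc22a5 (0.93), Slc22a6 (0.93), Slc22a8 (0.88) and Slc22a23 (0.87). For Slc22a6, rho was 0.93, the permutation p was 0.00014 and the adjusted p was 0.00703. The 2 that fell were Slco3a1 (r = -0.95) and Abcc5 (-0.88), and all 8 also passed by rank. Without RB030 and RB037, the farthest kidneys, the coefficients were at least 0.79 in size, and within treatment groups at least 0.85 in size. No member passed with both marker sums. Neighbours Slc22a6 and Slc22a8 belonged to the same set, and so did neighbours Slco1a1, Slco1a3 and Slco1a6. Fragments may have been divided among neighbours of like sequence, and the part of that in their shared set was not tested. Other neighbours did not share a set. Slc22a25, 65.0 kb from Slc22a8, passed with neither marker sum (r = 0.64 with the proximal tubule markers). Slc22a21, 68.8 kb from Slc22a5, passed with neither as well (r = -0.58 with the proximal tubule markers). Whether the share of each tubule segment in the dissected pieces differed was not tested.

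**Figure D2:**
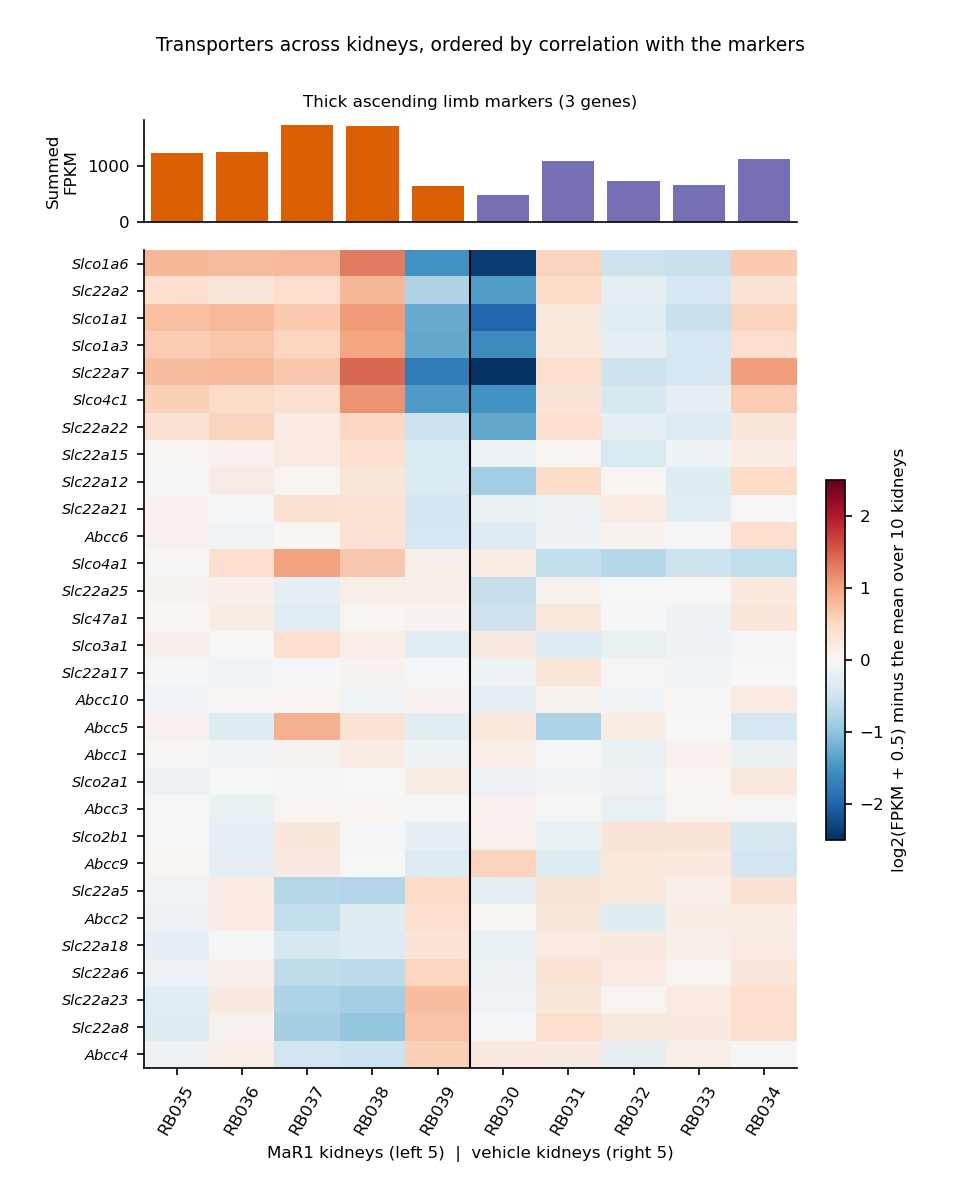
Upper bars: summed FPKM of 3 thick ascending limb markers in each kidney, MaR1 rats left and vehicle rats right. Lower map: log2(FPKM + 0.5) of members tested in kidney minus the mean over the 10 kidneys, ordered by correlation with the markers; Slco1a6, Slc22a7 and their set are blue in RB039 and RB030, where the bars are lowest (641 and 477 FPKM).

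**Figure D3:**
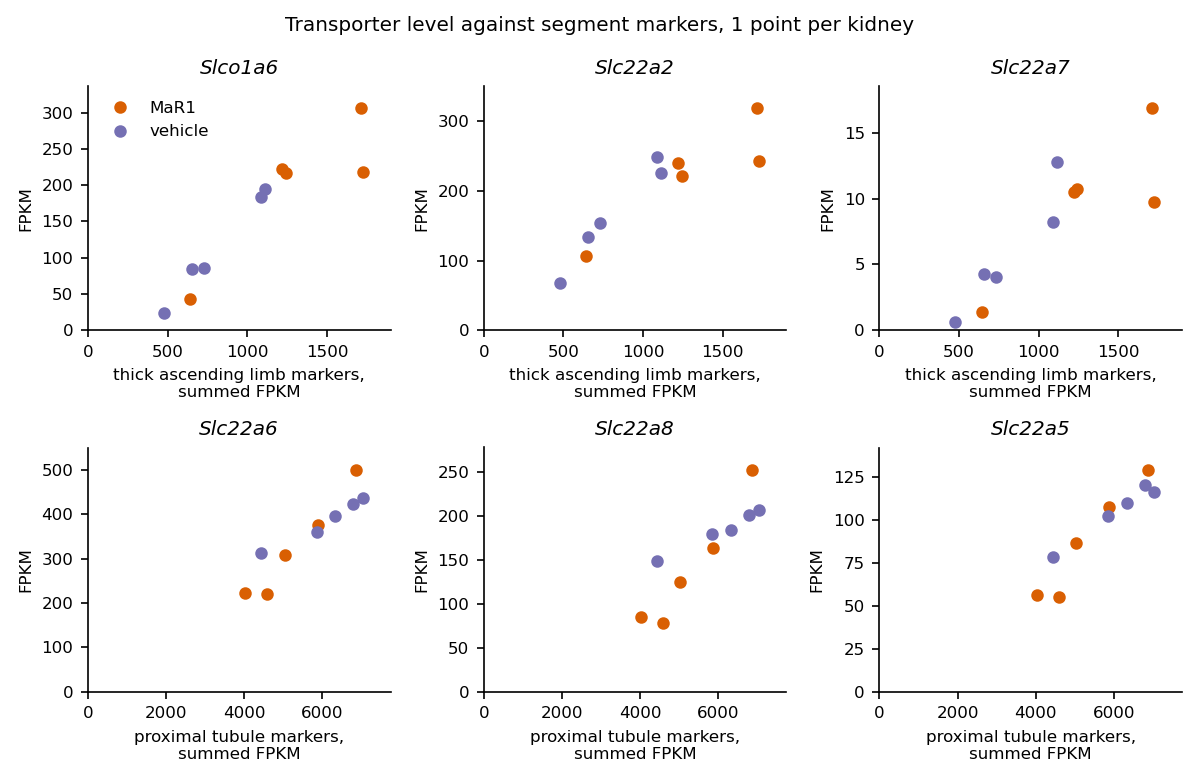
Level in FPKM of Slco1a6, Slc22a2 and Slc22a7 against the summed thick ascending limb markers (upper row) and of Slc22a6, Slc22a8 and Slc22a5 against the summed proximal tubule markers (lower row), 1 point per kidney, MaR1 orange and vehicle purple. In each panel the level rose with the marker sum over the 10 kidneys. MaR1 rat RB039, at 641 FPKM of thick ascending limb markers, lay among the vehicle rats. At like proximal tubule sums, Slc22a8 differed between treatments in some pairs of rats, in either direction, and less in another pair. Slc22a8 was 78.5 FPKM in MaR1 rat RB038 (sum 4582) and 149 FPKM in vehicle rat RB030 (sum 4435). It was 253 FPKM in MaR1 rat RB039 (sum 6871) and 201 FPKM in vehicle rat RB034 (sum 6785). MaR1 rat RB036 (sum 5878) had 164 FPKM and vehicle rat RB033 (sum 5849) had 180 FPKM. Whether both treatments follow 1 course was not tested.

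No member was called in MaR1 kidneys against vehicle kidneys (0 of 31 tested, limma, adjusted p under 0.05), as 0% of all 12446 genes were. At an unadjusted p under 0.05 stood 1 member, higher in MaR1 kidneys, against 6.75% of all genes (3.28% higher and 3.47% lower). MaR1 and vehicle kidneys overlapped for all 31, against 1.23% of genes without overlap. Of the 31, 17 were higher and 14 lower, with a median log2 fold change of 0.04, beside a median under 0.01 in size over all genes. The proximal tubule and thick ascending limb markers given above, podocyte markers (47.9 to 80.2 FPKM in MaR1 kidneys and 75.5 to 113 FPKM in vehicle kidneys) and collecting duct markers (203 to 325 FPKM in MaR1 kidneys and 141 to 215 FPKM in vehicle kidneys) differed in range too. Inner medulla and thin limb markers summed to 3.45 to 29.3 FPKM in MaR1 kidneys and 1.35 to 3.71 FPKM in vehicle kidneys, highest in RB037, and adipocyte markers to 28.7 to 494 FPKM in MaR1 kidneys and 11.4 to 23.96 FPKM in vehicle kidneys, without overlap. For all these lists, their part in the members' values was not tested.

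That member was Slco4a1, a thyroid hormone carrier, with 0.992, 1.46, 2.45, 1.83 and 1.13 FPKM in MaR1 kidneys and 1.16, 0.454, 0.395, 0.511 and 0.456 FPKM in vehicle kidneys. The MaR1 kidneys were higher except that vehicle rat RB030 lay among them, and the highest was RB037, the kidney with the most inner medulla and thin limb transcripts; their part in this value was not tested. The log2 fold change was 0.92 ± 0.22 (SE), with an adjusted p of 0.582 in limma. The gene reached the filter of 1 FPKM only through the MaR1 group, and without RB037 it fell under the filter. Among the next by p were Slc22a8 (log2 fold change -0.51 ± 0.28, adjusted p = 0.758), Slc22a18 (-0.25, adjusted p = 0.763), Slco1a1 (0.81 ± 0.52, adjusted p = 0.812) and Slc22a22 (0.45, adjusted p = 0.821). The width of the intervals differed between members: that of Slco1a1 ran from -0.35 to 1.96, and that of Slco2a1 from -0.18 to 0.21.

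The kidney of MaR1 rat RB039 weighed heavily on these values. Without rat RB039, 16 of 32 members tested had an unadjusted p under 0.05, against 14.1% of all genes, and 0 had an adjusted p under 0.05. Higher in MaR1 were 10 members, against 6.07% of all genes, among them Slco1a6 (log2 fold change 1.39, adjusted p = 0.263), Slco1a1 (1.22, adjusted p = 0.22), Slc22a7 (1.31, adjusted p = 0.343) and Slc22a2 (0.74, adjusted p = 0.347). Lower were 6, against 8.05% of all genes, among them Slc22a8 (-0.76, adjusted p = 0.137), Slc22a18 (-0.36, adjusted p = 0.163), Slc22a23, Slc22a6 and Slc22a5. Leaving out the kidneys of RB039 and RB030 together gave 9 members higher and 6 lower of 33 at an unadjusted p under 0.05, against 6.52% of all genes higher, 10.1% lower and 16.7% in either direction, and again 0 past the adjustment. The thick ascending limb and proximal tubule markers of RB039 (641 and 6871 FPKM) stood apart from those of the other MaR1 kidneys (1220 to 1727 and 4027 to 5878 FPKM), and their part in these values was not tested.

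**Figure D4:**
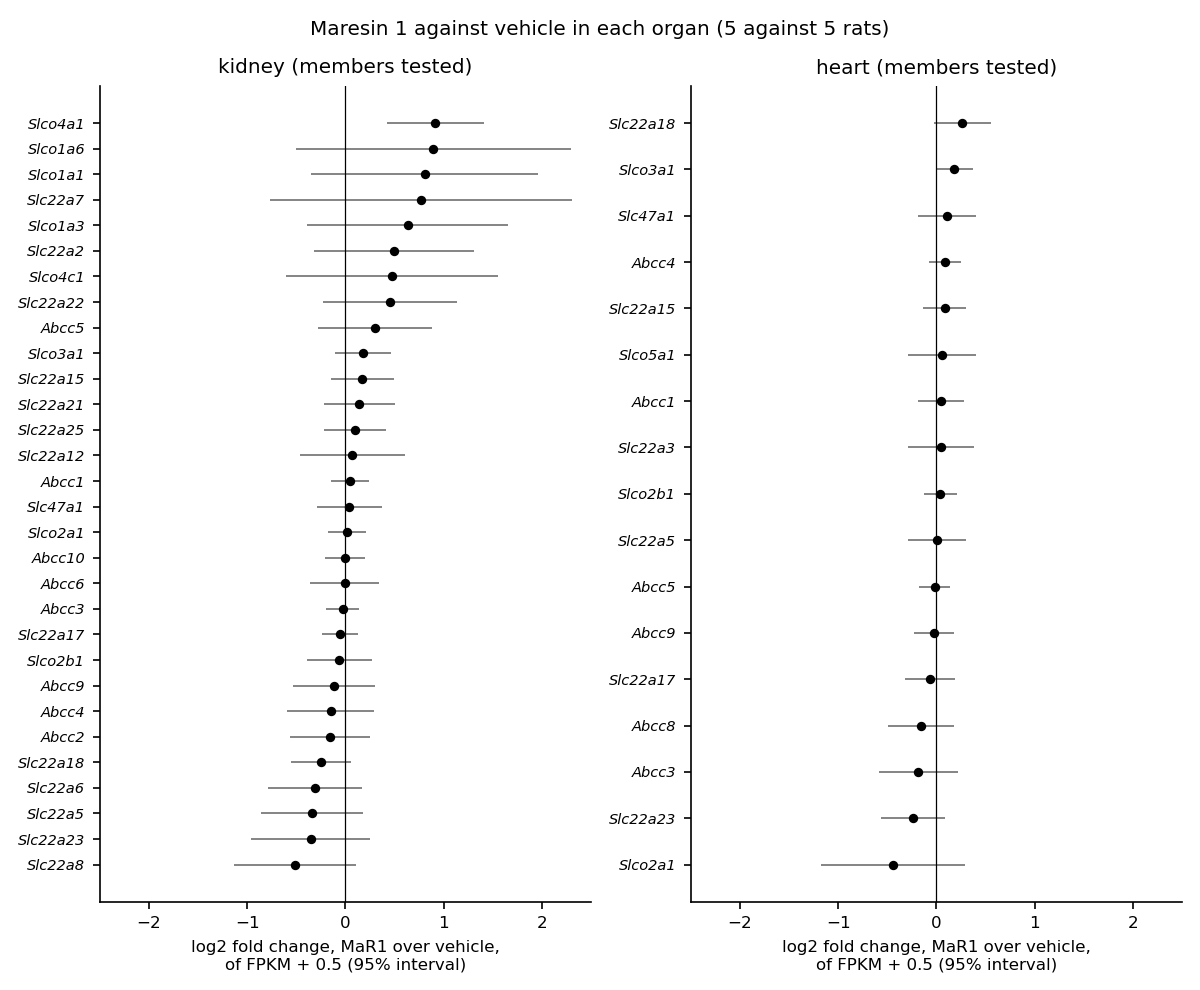
Log2 fold change of MaR1 over vehicle on the log2(FPKM + 0.5) scale, with 95% intervals from limma, for members tested in kidney (left) and in heart (right), 5 rats against 5. In kidney the interval of Slco4a1 alone lies clear of 0, and in heart the interval of every member spans 0.

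In the heart, too, no member was called between MaR1 and vehicle rats (0 of 17 tested, against 0% of 12237 genes). At an unadjusted p under 0.05 stood 0 members, against 4.6% of all genes (3.07% higher and 1.53% lower), and 0 members were without overlap, against 0.842%. The median log2 fold change was 0.04 over the 17 and 0.01 over all genes. Slco3a1, whose values are given above, had the smallest p, with a log2 fold change of 0.18 ± 0.09 (SE; adjusted p = 1). Slc22a18 followed with 8.62, 5.25, 6.26, 7.09 and 6.17 FPKM in MaR1 hearts and 5.45, 4.35, 5.35, 6.70 and 5.39 FPKM in vehicle hearts and a log2 fold change of 0.26 ± 0.13 (adjusted p = 1). Both genes overlapped between the groups, and the highest Slc22a18 value was that of MaR1 rat RB035.

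Slc22a23, Slco2a1, Abcc4 and Abcc8 came next, with log2 fold changes of -0.24, -0.44, 0.09 and -0.16, each at an adjusted p of 1. Slco2a1 had 3.46, 1.03, 1.08, 2.30 and 1.23 FPKM in MaR1 hearts and 2.17, 2.73, 1.30, 5 and 2.02 FPKM in vehicle hearts. Within each treatment, its highest heart was the one with the most atrial transcripts, RB035 among MaR1 rats and RB033 among vehicle rats, whose atrial markers summed to 1436 and 3384 FPKM. Their part in the result was not tested. Without the 5 hearts that carried atrial transcripts, the Slc22a23 difference turned to 0.07, while that of Slco3a1 was 0.22 (limma, adjusted p = 0.703). That fit held only MaR1 rats RB036, RB037 and RB039 and vehicle rats RB030 and RB032.

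**Figure D5:**
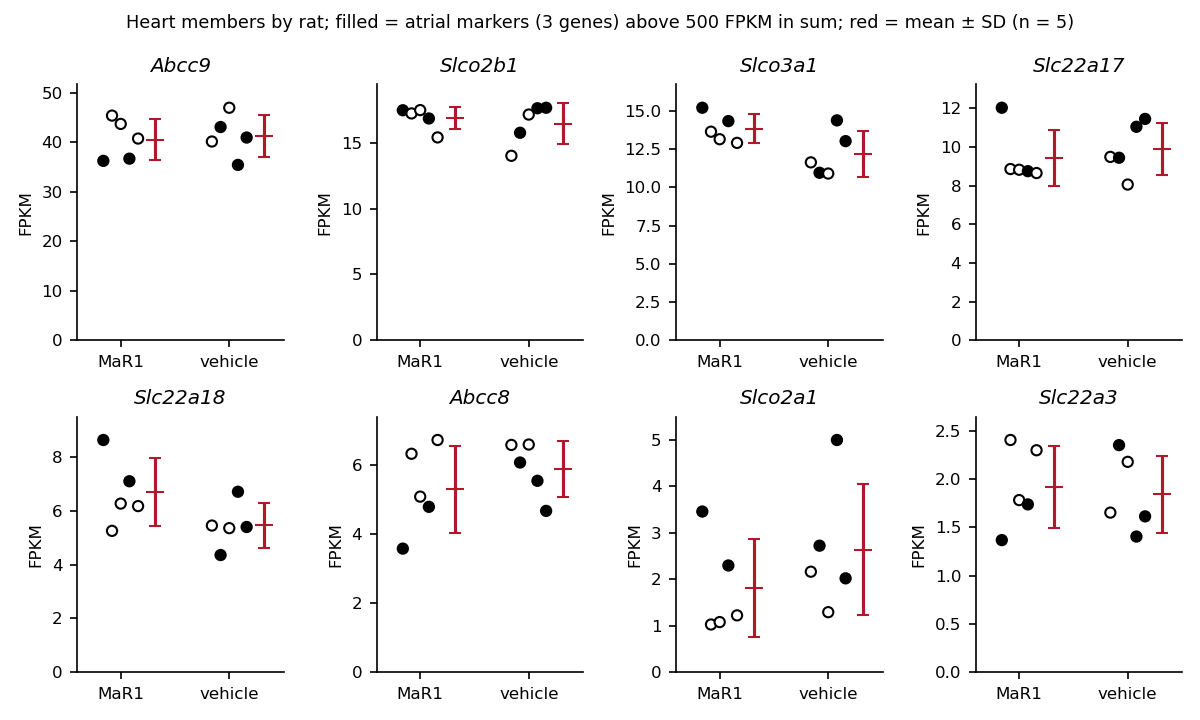
Level in FPKM of 8 members in each left ventricle, MaR1 left and vehicle right in each panel, 1 point per rat, with the mean ± SD in red (n = 5). Filled points are hearts whose 3 atrial markers summed to more than 500 FPKM (616 to 3384); the highest Slco2a1 value and the lowest Abcc9 value of each treatment are filled points, those of RB035 and RB033.

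The MaR1 response in kidney did not differ from that in heart for any member past the threshold (0 of 33 tested, against 0% of 12984 genes). At an unadjusted p under 0.05 stood 4 members, against 5.5% of all genes, and all 4 had the lower response in kidney, against 3.28% of all genes lower and 2.22% higher. Among them were Slc22a8 (difference of log2 fold changes -1.0 ± 0.36 SE, adjusted p = 0.8), Slc22a18 (-0.51, adjusted p = 0.812) and Slc22a6 (-0.85, adjusted p = 0.852). In hearts, Slc22a6 and Slc22a8 were at 0.0865 to 1.09 and 0.0851 to 0.807 FPKM in MaR1 rats and 0 to 0.425 and 0.0253 to 0.193 FPKM in vehicle rats, levels at which the fitted heart response rests on few fragments; by limma voom, the difference for Slc22a8 was -2.24. Summed proximal tubule markers in hearts were 23.6 to 36.6 FPKM in MaR1 rats and 14.9 to 28.5 FPKM in vehicle rats, and their part in the difference was not tested. Without rat RB039, 11 members had an unadjusted p under 0.05, against 9.49% of all genes: 5 with the higher response in kidney, against 3.76%, and 6 with the lower, against 5.73%.

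No gene of the related lists was called for MaR1 either. Of 24 further drug and metabolite transporters found in the table, 20 were tested in kidney: 7 were higher and 13 lower in MaR1 rats, 0 were called, and the median log2 fold change was -0.13. The smallest p-values were those of Slc17a3, an apical urate and anion exporter (log2 fold change -0.25, adjusted p = 0.661), and Slc29a3, an intracellular nucleoside transporter (-0.28, adjusted p = 0.688). In heart 8 were tested, 5 higher and 3 lower, 0 called, with Slc28a2, a nucleoside carrier, at 0.20 and Slc19a2, a thiamine carrier, at 0.08, both at an adjusted p of 1. Of 13 regulators and partners found, 12 were tested in kidney, 4 higher and 8 lower with 0 called and a median of -0.09. The xenobiotic receptor Nr1i2 (PXR) was at -0.26 (adjusted p = 0.705) and the bile acid receptor Nr1h4 (FXR) at -0.35 (adjusted p = 0.721). In heart 7 of them were tested, 4 higher and 3 lower and 0 called, with the dioxin receptor Ahr at 0.17 and the antioxidant factor Nfe2l2 at -0.05. Between organs, 16 of 19 further transporters tested were called higher in kidney and 3 lower, beside 43.6% and 41% of all genes. Of 13 regulators and partners, 9 were called higher and 3 lower, a number of calls near the 84.6% of all genes.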

How the data were processed

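Poly-A RNA of 20 libraries was quantified by the authors as FPKM per gene; the deposited table gives the FPKM values and gene lengths. Per the submitters' processing notes the tools were fastp, HISAT2 2.0.5, StringTie 1.3.3b and featureCounts 1.5.0-p3; neither build nor strand setting is named in these sources, so reads of overlapping antisense genes may be mixed. FPKM times length was whole, within 0.01 of a fragment, for 100% of 371175 values, and 1 FPKM of a gene of 1 kb stood for 19.7 to 34.9 fragments. No pair of the 190 library pairs was alike (smallest chi-square per degree of freedom 10.1).

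Genes averaging 1 FPKM or more in the libraries of a fit were tested as log2(FPKM + 0.5) with limma 3.58.1 in R 4.3.3 (variance trend, two-sided), with Benjamini-Hochberg adjustment over all genes and a threshold of adjusted p 0.05; the pseudocount understates fold changes of low genes. Each organ was fitted alone, and organ contrasts used all 20 libraries. The steps were tested on simulated data. Correlations used 100000 permutations. Members of at least 10 FPKM in either organ were named with all values in that organ, then the 6 members of smallest p per organ, 3 for the difference of responses, 5 per direction between organs and 2 per further list; others by range, and genes singled out without rat RB039 after their values were seen. Kidney and heart share an animal: same-animal correlations of deviations were -0.00947 to 0.179 over 10990 genes. Counts cover all members, but 1 member is not reported here. The members and lists were chosen with earlier results of these data known. Alternatives were other pseudocounts, filters and scalings, no trend, limma voom on recovered fragments (median-of-ratios library sizes), the animal as block, vehicle libraries alone, and leaving out each animal; those leaving out the kidneys of RB030 and RB039 or the hearts with atrial transcripts, and a joint model without a block, were added after seeing the data. Figures were drawn with matplotlib 3.10.9.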

Additional observations from a re-analysis of the deposited data

Results flagged for a closer look

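In 6 of 96 groups of 5 rats, a single library lay apart from the other 4 by Dixon's test (critical value 0.71), about as many as the 1 in 20 that chance gives. Slc22a18 was low at 70.1 FPKM in vehicle kidney RB030, beside 87.4 to 92.6 FPKM in the other vehicle kidneys. Slco4a1 was high in that same kidney at 1.16 FPKM, beside 0.395 to 0.511 FPKM. Abcc3 was low at 2.55 FPKM in vehicle kidney RB032, beside 3.04 to 3.23 FPKM. Among MaR1 kidneys, Slc22a25 was low at 37.3 FPKM in RB037, beside 46.6 to 48.5 FPKM, and Slc22a17 was high at 10.4 FPKM in RB038, beside 9.28 to 9.49 FPKM. In MaR1 hearts Slc22a17 was high at 12.02 FPKM in RB035, beside 8.65 to 8.85 FPKM.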

How the results depend on the processing

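For MaR1, 0 members were called in either organ or for the difference of responses under every alternative run. Between organs 31 members were called under the main settings; with a mean FPKM of at least 5 the count was 20 of 21 tested, with 4 lower in kidney in place of 8, because fewer members were tested. With the animal as replicate block, for which kidney and heart of a rat pair by design, the organ comparison called 31 members, against 85% of all genes. The MaR1 comparisons with that block called 0 members, and no other call changed. Slc22a23 in heart reversed to a log2 fold change of 0.0687 without the hearts with atrial transcripts, against -0.24 with all hearts. The smaller fit held only MaR1 rats RB036, RB037 and RB039 and vehicle rats RB030 and RB032, and the cause was not tested. Leaving out 1 rat moved the number of kidney members at an unadjusted p under 0.05 between 0 (without RB037) and 16 (without RB039). Leaving out 1 rat gave 30 to 31 calls between organs, against 83.2% to 84.4% of all genes. With no filter, 6 of 43 heart members tested had an unadjusted p under 0.05, all higher in MaR1 hearts. Of all 21725 genes tested so, 4.48% had such a p (581 higher and 392 lower). All 6 members averaged under 1 FPKM over the hearts, and 0 passed the adjustment. The MaR1 comparisons rest on 5 rats a group, and members under 1 FPKM rest on few fragments.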
